A study of Mus musculus with 4 samples.

Results

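The glycolysis and lactate genes followed here through the cells of the mouse retina are Hk1, Hk2, Pfkp, Aldoa, Aldoc, Gapdh, Pkm, Ldha, Ldhb and Slc16a1. They were chosen by name as a pathway set, not by a cut on their values, and are 10 of 20094 genes measured. Earlier results of these data were known when the set was chosen. All 10 were found and all passed the filter on low values. They are described in photoreceptors (rods and cones) against Müller glia, the radial support cells of the retina, and against inner neurons (bipolar and amacrine cells).

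Glycolysis splits glucose into pyruvate in the cytosol. Hexokinase traps glucose in the cell, phosphofructokinase commits it to the pathway, aldolase and glyceraldehyde-3-phosphate dehydrogenase act in the middle, and pyruvate kinase makes pyruvate. Lactate dehydrogenase interconverts pyruvate and lactate, and monocarboxylate transporters carry lactate across membranes. Photoreceptors are known for turning much of their glucose into lactate even with oxygen present, a habit called aerobic glycolysis, and lactate exchange between photoreceptors, Müller glia and the pigment epithelium is a standing topic of retinal metabolism.

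All mice, the controls included, were 6-week-old Abca4-/-Rdh8-/- animals of C57BL/6J background. They lack a lipid transporter and a retinol dehydrogenase of the visual cycle, and their photoreceptors are known to be injured by bright light. There were 4 groups: unbleached vehicle, bleached vehicle, bleached rolipram and bleached BC11-38, with 1 single-cell library each. Bleaching was 10000 lux for 30 min after 24 h of darkness and 1% tropicamide, and retinae of the bleached groups were taken 1 day later. Rolipram, an inhibitor of phosphodiesterase 4, and BC11-38, an inhibitor of phosphodiesterase 11, were injected in DMSO at 2 mg/kg 30 min before light. Whether the unbleached mice had the darkness and the eye drops is not recorded in the labels. Each library pooled 4 retinae of 2 mice, so it holds no measure of the spread between mice, and a wild-type strain is not among the groups analysed here.

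The 4 libraries held 5697 to 7894 cells and 28983626 to 44386442 unique transcript counts (UMIs). Levels below are in CPM, the UMIs of a gene scaled to one fixed total for each cell class in a library, and sets of 4 values run in the order unbleached, then bleached vehicle, then rolipram, then BC11-38. Rod UMIs came from shallow cells, with a median of 1214 to 1491.5 UMIs per cell, against 5580 to 13715.5 in Müller glia. Xist, the RNA that coats the inactive X chromosome in females, was seen in 0.176% of cells of the bleached vehicle library and in 48.1% to 51.6% of cells of the other 3, so that library stands apart in a way its label does not give. The caller of doublets marked 2 to 18 cells per library where 4.56% to 6.32% were expected from the cell numbers, too few for the caller to have worked, and how many doublets remain was not tested. In all, 184 cells carry a barcode that also occurs in another library.

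Rods, cones, Müller glia, bipolar and amacrine cells each showed their defining markers as classes. An amacrine cluster of 556 cells (cluster 34, led by Ebf1, Ppp1r17 and Crabp1) held only 5 of 13 amacrine markers and none among its 10 leading genes. At the coarser Leiden resolution of 0.5, a cluster of 1001 cells with the same 3 genes among its leading ones took the horizontal name, and amacrine cells then numbered 417 to 890 per library in place of 499 to 1215. Over 10 rod markers the median level, as a share of that in rods, was 2.04% to 3.55% in Müller glia, 3.02% to 4.49% in bipolar cells and 2.50% to 4.08% in amacrine cells. This median share, chosen after the data were seen, is used below as a yardstick of rod RNA carried into other droplets, by free RNA or doublets. The Müller class includes a small cluster led by Gfap, an astrocyte marker. Summed astrocyte markers in the class were 1019, 1096, 667 and 289 CPM. Of these Gfap was 764, 869, 397 and 32.7 CPM and Aldh1l1 132, 163, 67.2 and 42.6 CPM. The other markers of the list, S100b, Pax2, Igf2 and Pdgfra, were instead lowest in bleached vehicle. S100b, for one, was 49.1, 19.8, 75.9 and 101 CPM. The sum thus does not stand for the list as a whole.

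Promoter stretches of 5 members are shown because they hold ACGTG, the core letters of the element bound by hypoxia-inducible factors, which are known to drive glycolytic genes. The 250 bases before each RefSeq start site (build GRCm38.p6) were searched on both strands. A match lay in 6 of 16 promoters of the members, belonging to 5 of the 10 genes (2 of the 6 are overlapping Aldoa windows that hold the same stretch), and in 16.6% of 32851 promoters of the same table. Capitals mark the match at the centre of each stretch, and where ACGTG on one strand overlaps its reverse complement on the other the capitals read CACGTG, which is also the E-box. CACGTG stood in 6.02% of all promoters.
Slc16a1, chr3:104638444-104638489, plus strand: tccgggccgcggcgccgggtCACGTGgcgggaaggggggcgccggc
Hk2, chr6:82774482-82774526, minus strand: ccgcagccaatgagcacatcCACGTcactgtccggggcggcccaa
Ldha, chr7:46845639-46845684, plus strand: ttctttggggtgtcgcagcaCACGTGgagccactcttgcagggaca
Ldha, chr7:46845736-46845781, plus strand: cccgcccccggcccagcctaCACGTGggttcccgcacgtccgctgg
Aldoa, chr7:126799356-126799400, minus strand: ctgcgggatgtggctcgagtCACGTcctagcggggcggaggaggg
Pkm, chr9:59657132-59657176, plus strand: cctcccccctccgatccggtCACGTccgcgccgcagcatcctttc
Ldha held 3 separate matches in its upstream promoter, the third in lower case near the 3′ end of its second stretch, a number reached by 0.256% of promoters, and Hk2 held 2. No match was found in these windows for Hk1, Pfkp, Aldoc, Gapdh or Ldhb. A match is a description of letters and not a bound site.

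The class contrasts were fitted with limma over 20 sums (5 classes in 4 libraries) of log2(CPM + 1), with the library as a block. A gene was called at a Benjamini-Hochberg adjusted p under 0.05 over 15954 genes and a difference of at least 2-fold. The libraries serve as replicates here although they differ in treatment. The block takes out shifts common to all classes of a library. The error thus holds differences between classes in how they shift, those from treatment included. Against Müller glia, photoreceptors had higher Hk2, Hk1, Ldha and Pkm and lower Aldoc and Ldhb, while Pfkp, Aldoa, Gapdh and Slc16a1 were not called. That is 4 of 10 higher where 19.6% of all genes were called higher, and 2 of 10 lower where 22.2% were. The median difference of the 10 genes was 0.52 on the log2 scale, and that of all genes 0.14.

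**Figure D1:**
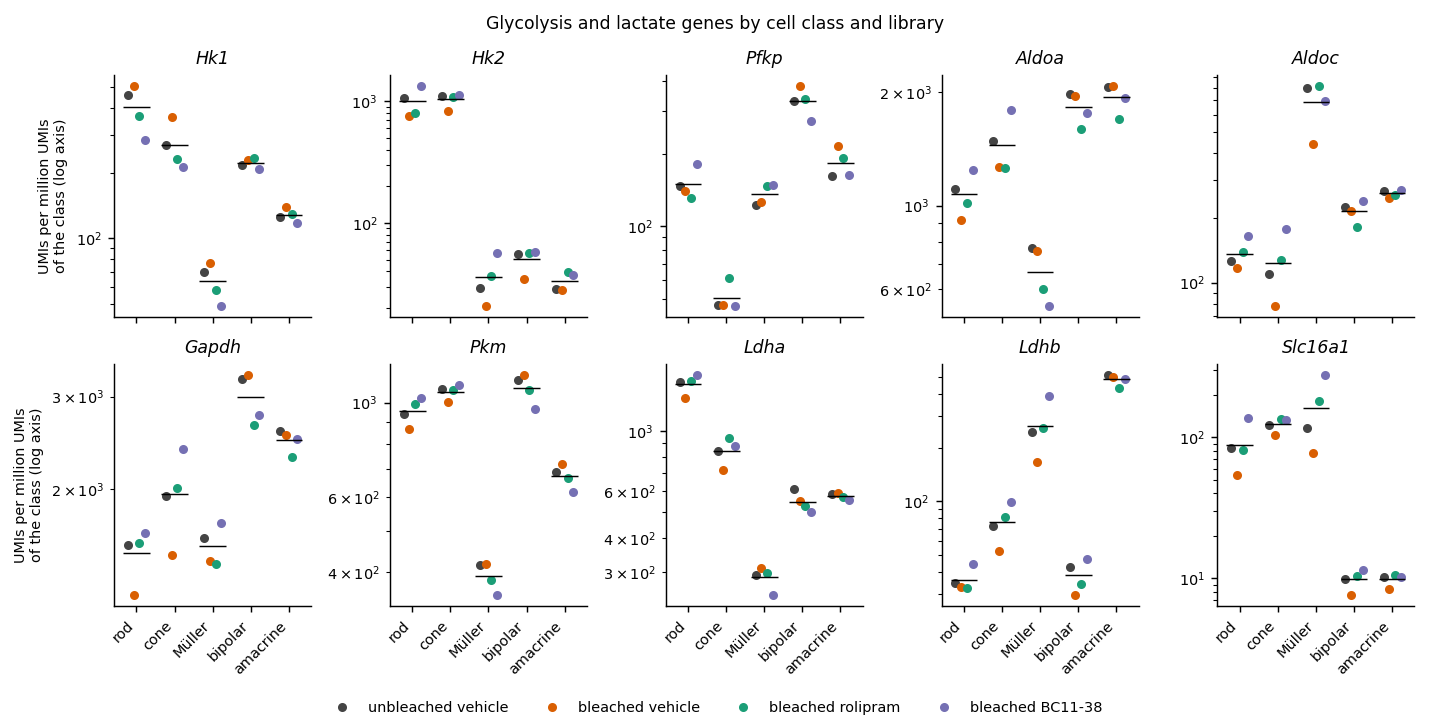
Levels of the 10 genes in CPM of the class (log axes that differ between panels) for 5 cell classes, with 1 point per library and a bar at the mean of the 4 libraries. Hk2 sits at 762 to 1343 in rods and 828 to 1133 in cones and at 20.8 to 57.2 in the other classes, Ldhb is highest in amacrine cells, and Aldoc is highest in Müller glia.

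Hexokinase, the entry step, showed the widest gap. Hk2 (chr6:82725025-82774454, minus strand of build GRCm38), the hexokinase form known from muscle and from growing cells, was 1064, 762, 805 and 1343 CPM in rods. In cones it was 1099, 828, 1077 and 1133 CPM. The rod and cone ranges overlapped, and the difference of cones from rods was 0.09 ± 0.15 (SE) on the log2 scale, adjusted p = 0.644 by limma.

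In Müller glia Hk2 was 29.5, 20.8, 36.6 and 56.6 CPM. The limma difference of photoreceptors from Müller glia was 4.85 ± 0.13 (log2, SE), a fitted fold of 28.8, with adjusted p = 1.66e-16 and the same direction in 4 of 4 libraries. From inner neurons it was 4.59 ± 0.10, adjusted p = 2.74e-17 by limma. These folds rest on low values near the yardstick. Scaling rod Hk2 by the median marker share gave 23.3, 15.5, 28.5 and 43.6 CPM in Müller glia, and the measured level was 1.26 to 1.34 times that. The same ratio was 0.899 to 1.23 in amacrine cells and 1.16 to 1.72 in bipolar cells, less than the 4.68 to 11.5 of Ldha in Müller glia. Differences of Hk2 between libraries in these 3 classes are given but not read as changes.

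**Figure D2:**
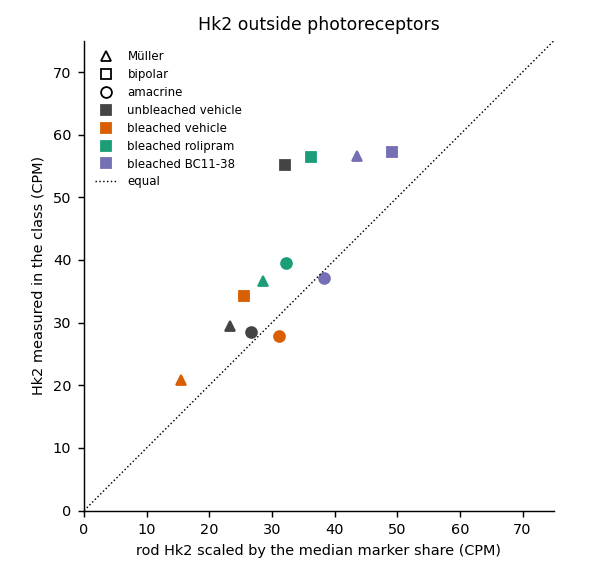
Hk2 measured in Müller, bipolar and amacrine cells (vertical axis, CPM) against the Hk2 level of rods scaled by the median share of 10 rod markers found in the same class (horizontal axis, CPM), with 1 point per class and library and a dotted line of equality. Müller points run from 20.8 to 56.6 CPM, each 1.26 to 1.34 times the scaled level and so just above the line.

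Hk1 (chr10:62268855-62379908, minus strand), the hexokinase form found in most neurons, had, among the 5 classes fitted, its highest mean in rods and its lowest in Müller glia. Rods held 458, 507, 368 and 283 CPM, and cones 270, 364, 234 and 215 CPM. Means were 404 ± 99.0 (SD, n = 4) in rods, 270 ± 66.4 in cones, 223 ± 11.2 in bipolar cells, 128 ± 9.17 in amacrine cells and 63.5 ± 12.5 in Müller glia. The ranges of rods and cones overlapped, as did those of cones and bipolar cells, and the lower steps did not. Against Müller glia the difference was 2.35 ± 0.09, adjusted p = 4.68e-14 by limma. Against inner neurons it was 0.93 ± 0.08, adjusted p = 2.13e-09, below the 2-fold mark, which it passed at 1.03 without the BC11-38 library.

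Pfkp (chr13:6579768-6648777, minus strand), the platelet form of phosphofructokinase, ran the other way. It was 331, 382, 336 and 272 CPM in bipolar cells and 47.3, 47.1, 60.9 and 46.8 CPM in cones, with rods, Müller glia and amacrine cells at means of 150, 136 and 183 CPM. Photoreceptors lay below inner neurons (difference -1.49 ± 0.09 on the log2 scale, adjusted p = 1.66e-11 by limma). The ranges of rods (131 to 180 CPM) and amacrine cells (162 to 215 CPM) overlapped, with amacrine cells above rods in 3 of 4 libraries. The larger part of the difference thus lay in the low cones and the high bipolar cells. Cones lay below rods in 4 of 4 libraries (difference -1.55 ± 0.13, adjusted p = 6.56e-09 by limma), the member with the widest gap between the photoreceptor types.

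The aldolases parted by class. Aldoc (chr11:78322968-78327781, plus strand), the brain form of aldolase and a marker of glia in much of the brain, was 798, 440, 821 and 698 CPM in Müller glia. Its mean was 689 CPM there against 260 in amacrine cells, 215 in bipolar cells, 136 in rods and 123 in cones, and the Müller range overlapped none of these. The difference of photoreceptors from Müller glia was -2.40 ± 0.13, adjusted p = 6.28e-12 by limma, and that of Müller glia from inner neurons 1.5 ± 0.13, adjusted p = 7.44e-09.

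Aldoa (chr7:126795234-126800751, minus strand), the muscle and general form, had its lowest mean of the 5 classes in Müller glia, 668 CPM, and its highest in amacrine cells, 1944 CPM, while the few ganglion and horizontal cells held 2741 and 2609 CPM. Photoreceptors exceeded Müller glia by 0.90 ± 0.11 (adjusted p = 5.82e-07 by limma), below 2-fold, and Müller glia lay below inner neurons with a difference of -1.5 ± 0.11, adjusted p = 5.04e-10. Without the bleached vehicle library the first of these became 1.04. A second annotated gene of the same name lies just upstream, and processed copies of Aldoa, Gapdh, Pkm and Ldha exist in the genome, so their counts are uncertain where the counting could split reads.

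Gapdh and Pkm carry the later steps. Gapdh (chr6:125161715-125166467, minus strand), which couples sugar oxidation to NADH, was highest of the 5 classes in bipolar cells, at 3248, 3301, 2645 and 2764 CPM, and had its lowest mean in rods, at 1564, 1251, 1575 and 1643 CPM, a range that overlapped that of Müller glia. Its photoreceptor minus Müller difference was 0.13 ± 0.11, adjusted p = 0.281 by limma, and turned to -0.21 under median-of-ratios scaling and to -0.0068 as a mean over cells. Pkm (chr9:59656368-59679375, plus strand), which makes pyruvate, averaged 955 CPM in rods, 1061 in cones, 1082 in bipolar cells, 671 in amacrine cells and 393 in Müller glia. Müller glia had the lowest Pkm of the 5 classes in 4 of 4 libraries, and photoreceptors lay above them by 1.36 ± 0.08, adjusted p = 7.22e-12 by limma.

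**Figure D3:**
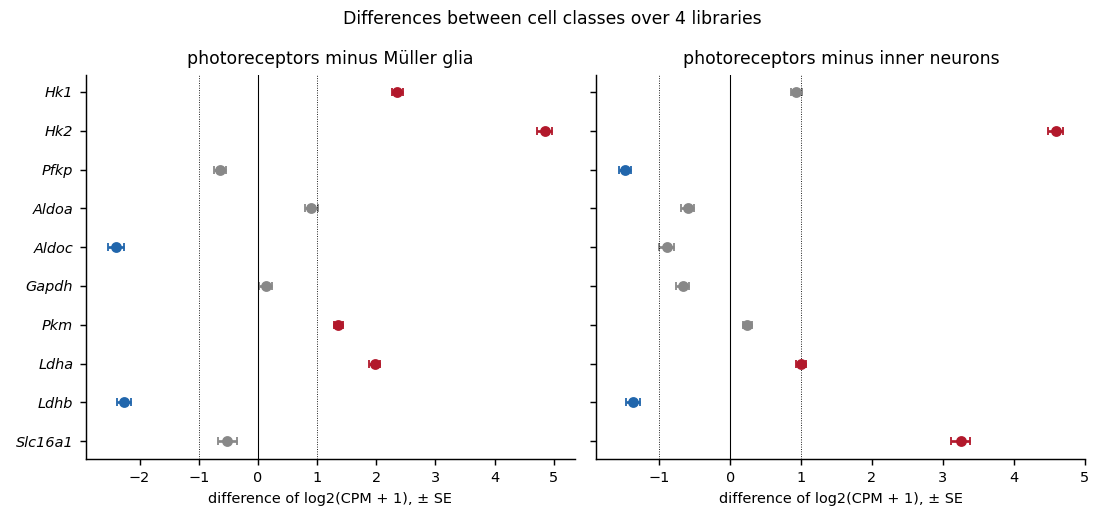
Difference of log2(CPM + 1) between photoreceptors and Müller glia (left) and between photoreceptors and inner neurons (right) for the 10 genes, with standard errors of the limma fit over 4 libraries. Red points were called higher, blue points lower and grey points were not called, and dotted lines mark 2-fold: Hk2 lies at 4.85 and 4.59, Ldhb at -2.27 and -1.37.

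The lactate dehydrogenase pair showed opposite class patterns. Ldha (chr7:46841475-46855627, plus strand), the subunit known to favour lactate formation, was 1524, 1325, 1536 and 1617 CPM in rods, above every value in the other 4 classes. Cones held 841, 717, 942 and 883 CPM, and Müller glia 293, 311, 298 and 246 CPM. Photoreceptors exceeded Müller glia by 1.97 ± 0.08, adjusted p = 1.32e-13 by limma. Against inner neurons the difference was 1.00 ± 0.07, adjusted p = 1.52e-10, on the 2-fold mark itself: it fell to 0.96 without the rolipram library, to 0.94 without the BC11-38 library, and to 0.98 to 0.99 under 3 other settings, the coarser clustering among them.

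Ldhb (chr6:142490249-142507957, minus strand), the subunit known to favour pyruvate formation, was 34.6, 33.0, 32.6 and 44.2 CPM in rods and 512, 498, 434 and 487 CPM in amacrine cells. Müller glia held 245, 166, 257 and 392 CPM. Bipolar cells, at 29.6 to 47.3 CPM, were as low as rods, so the contrast of photoreceptors with inner neurons (-1.37 ± 0.10, adjusted p = 2.61e-10 by limma) rests on the amacrine cells. Bipolar cells differed from amacrine cells by -3.64 ± 0.14, adjusted p = 2.15e-13. Photoreceptors differed from Müller glia by -2.27 ± 0.12, adjusted p = 2.91e-12. Cones lay above rods by 1.04 ± 0.14, adjusted p = 4.02e-06, which fell to 0.96 without the rolipram library.

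As a share of the UMIs of the pair, Ldha made up 97.3% to 97.9% in rods, 89.9% to 93.1% in cones and 91.4% to 94.9% in bipolar cells. It made up 53.2% to 56.8% in amacrine cells and 38.6% to 65.2% in Müller glia. The Müller share was 54.4%, 65.2%, 53.6% and 38.6%, each with an exact 95% binomial interval no wider than 36.7% to 40.4%. Müller Ldha was 4.68 to 11.5 times the level of rod Ldha scaled by the median marker share. Shares are compared between classes or libraries and do not rank the genes of a pair, whose capture may differ.

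**Figure D4:**
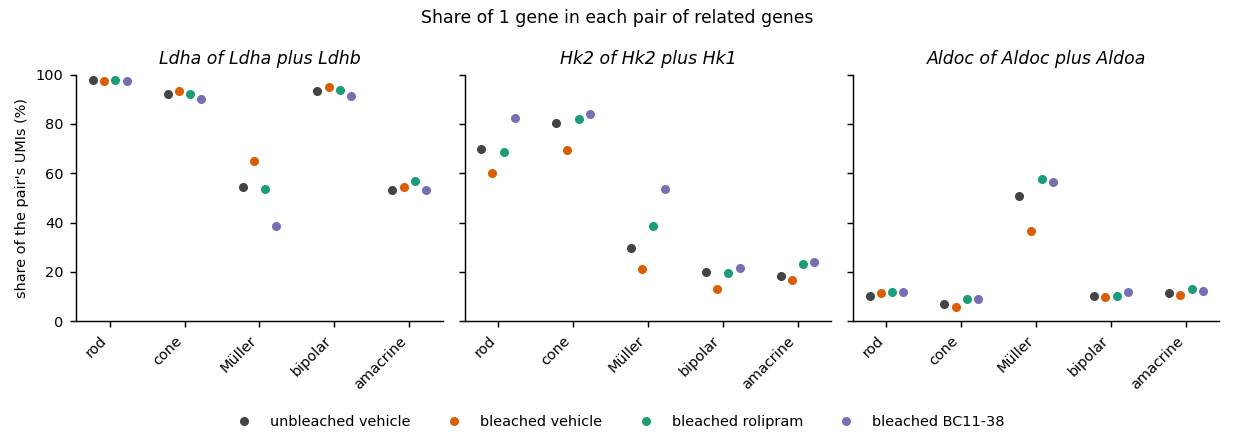
Share of the first gene in the UMIs of each pair (percent, axis from 0 to 100) by cell class, with 1 point per library. Ldha is above 97% in rods, 53.2% to 56.8% in amacrine cells and 38.6% to 65.2% in Müller glia. Hk2 is 60.0% to 84.1% in rods and cones, and Aldoc reaches 36.8% to 57.7% in Müller glia and at most 13.1% elsewhere.

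Inner neurons were not uniform in the lactate and aldolase genes. A bipolar cluster led by Pcp2 and Trpm1, with the rod bipolar marker Prkca among its leading genes, had 4.77 CPM of Ldhb and 36.3 CPM of Aldoc over 1895 cells. The other bipolar clusters held 7.71 to 120 CPM of Ldhb and 121 to 446 CPM of Aldoc. Amacrine clusters ran from 261 to 778 CPM for Ldhb and from 32.0 to 426 CPM for Aldoc, so the ranges of Ldhb in bipolar and amacrine clusters did not overlap while those of Aldoc did. Clusters were formed without the 10 genes or the other pathway genes.

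Slc16a1 (chr3:104638668-104658462, plus strand) encodes monocarboxylate transporter 1, which carries lactate and pyruvate with protons. It was 116, 77.5, 180 and 276 CPM in Müller glia, 122, 104, 136 and 131 CPM in cones and 83.9, 53.7, 80.9 and 136 CPM in rods. Ranges of these 3 classes overlapped, and the photoreceptor minus Müller difference was -0.52 ± 0.16, adjusted p = 0.0079 by limma, below 2-fold. Bipolar and amacrine cells held 7.58 to 11.4 CPM. Photoreceptors exceeded inner neurons by 3.25 ± 0.13, adjusted p = 5.98e-14 by limma. Müller glia exceeded inner neurons by 3.77 ± 0.16, adjusted p = 1.88e-13 by limma. These folds rest on low values. Slc16a1 was 2.28 to 4.2 times the rod level scaled by the median marker share in bipolar cells and 2.64 to 4.87 times in amacrine cells.

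Endothelial cells, where this transporter sits in the vessel wall, had 592 to 1025 CPM of Slc16a1 in 310 cells, and pigment epithelium-like cells 411 to 1513 CPM in 18 cells. In Müller glia the endothelial genes Cldn5, Cdh5, Pecam1 and Tie1 were at 0 to 1.25 CPM, against 2634 to 5226 CPM of Cldn5 in endothelial cells. Flt1 and Kdr, also on the endothelial list, were 336 to 790 and 826 to 917 CPM in Müller glia, and summed endothelial markers there were 1300, 1259, 1421 and 1620 CPM. Horizontal and ganglion cells had 12.2 to 28.6 CPM of Slc16a1 in 134 and 109 cells, below every rod, cone and Müller value. Microglia had 134 to 486 CPM of Hk2 in 3 libraries with 84 cells, where Hk2 made up 81.6% to 93.9% of the hexokinase pair. These few cells entered no test.

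Against inner neurons 3 of the 10 genes were called higher in photoreceptors (Hk2, Slc16a1 and Ldha), where 10.8% of all genes were, and 2 lower (Pfkp and Ldhb), where 21.7% were. Müller glia against inner neurons gave 2 higher (Slc16a1, Aldoc) beside 15.7% of all genes and 3 lower (Aldoa, Hk1, Pkm) beside 20.5%. Cones against rods gave 1 higher (Ldhb, 7.21% of genes) and 1 lower (Pfkp, 15.9%). Bipolar against amacrine cells gave 0 higher (7.67% of genes; 4 at an adjusted p under 0.05 without the 2-fold rule) and 1 lower (Ldhb, 13.8%).

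The genes around these steps did not move as a block. The class counts of these lists stand beside the shares of all genes. Those were 19.6% higher and 22.2% lower against Müller glia, and 10.8% and 21.7% against inner neurons. Of 9 glucose uptake genes tested, 2 were higher and 4 lower in photoreceptors than in Müller glia. Nxnl1 and Nxnl2, which encode rod-derived cone viability factors, were higher by 4.44 ± 0.12 and 4.54 ± 0.11, with 11.5 and 11.8 CPM in Müller glia beside 481 and 433 CPM in rods, so that these folds, like that of Hk2, rest on values near the yardstick. Txnip, a brake on glucose uptake, Bsg, the partner of these factors and of lactate transporters, and Slc2a1, the main retinal glucose transporter, were lower, with differences of -5.73 ± 0.30, -2.02 ± 0.15 and -1.70 ± 0.17. Against inner neurons Slc2a3, the neuronal glucose transporter, was lower, at 5.57 against 92.2 CPM.

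Of 14 other glycolytic enzymes tested, 2 were higher and 4 lower than in Müller glia, and 0 higher and 6 lower than in inner neurons (3 and 8 at an adjusted p under 0.05 alone). Eno2, the neuronal enolase, was higher by 2.94 ± 0.10 than in Müller glia, and Eno1, the general enolase, was lower at 710 against 2308 CPM. Tpi1, the triose phosphate isomerase, was 292 against 1004 CPM in inner neurons. The genes that set fructose 2,6-bisphosphate, the activator of phosphofructokinase, split too, with 2 of 4 tested higher and 1 lower: Pfkfb2 and Tigar were higher in photoreceptors than in Müller glia (3.56 ± 0.10 and 2.82 ± 0.15) and Pfkfb3 was lower, at 1.61 against 7.64 CPM. Pfkfb2 in Müller glia, at 9.03 CPM beside 236 CPM in rods, was near the yardstick too.

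Beside Slc16a1, 6 lactate genes were tested, of which 2 were higher and 1 lower than in Müller glia and 1 higher and 3 lower than in inner neurons. Slc16a6 was 209 CPM in photoreceptors against 10.8 in Müller glia and 13.0 in inner neurons, low values near the yardstick for the 299.7 CPM of rods, and Slc16a7, monocarboxylate transporter 2, was 0.992 against 33.9 CPM in inner neurons. Of 11 glycogen genes 7 were lower in photoreceptors than in Müller glia, among them Gyg, the primer of glycogen (-4.38 ± 0.16), Pygb (-3.96 ± 0.20) and Gbe1 (-3.75 ± 0.13), and Pygm was higher (2.91 ± 0.27). Pygm averaged 298 CPM in cones, 7.92 in rods and 7.27 in Müller glia, so its difference rests on the cones. Of 13 genes of pyruvate entry into mitochondria, 1 was higher and 3 lower than in Müller glia. Mpc1, of the pyruvate carrier, was 87.0 CPM against 249, and Pdk1, which shuts pyruvate dehydrogenase, was 7.23 CPM against 47.2 in inner neurons. Of the pentose phosphate genes 1 of 7, Tkt, was lower in both contrasts (-2.23 ± 0.09 and -3.05 ± 0.08). Tkt averaged 575 CPM in amacrine cells and 58.8 in bipolar cells, beside 28.3 in rods and 16.5 in cones. The larger part of its difference from inner neurons thus lay in the amacrine cells. Of 13 hypoxia response genes 2 were higher and 7 lower in each contrast. Adjusted p-values of the genes given with a difference in these paragraphs were at most 2.59e-06 by limma.

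Hk2 followed other photoreceptor genes closely. Over the 20 sums its log2(CPM + 1) correlated at r = 0.993 to 0.996 with Rp1l1, Rcvrn, Tulp1, AI847159 and Rtbdn, the 5 highest of 5639 genes compared. Aldoc was most like Col23a1, Nudt4, Sash1, Spon1 and Chadl (r = 0.946 to 0.951), and Ldhb most like Arl4c, Fbxo32, Tafa5 and Maf (r = 0.933 to 0.954). These are descriptions: the 20 sums share 4 libraries and 5 class profiles.

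Between libraries there is no replicate, so no test was made. A gene was counted at a ratio of 1.5-fold or more with at least 100 UMIs over the pair, with exact 95% intervals that cover counting error only. Each of the 10 genes in each of 5 classes makes 50 pairs per comparison. In bulk sums of a class, fewer cells of a subtype and less RNA per cell cannot be told apart.

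Bleached vehicle against unbleached vehicle gave 0 pairs higher and 3 lower. Rod Slc16a1 was 0.64 times its unbleached level (interval 0.537 to 0.762), in a class where 0.743% of genes were lower and 6.4% higher. Müller Aldoc was 0.551 times (0.533 to 0.569), with 7.8% of Müller genes lower and 7.73% higher. The third pair was Hk2 in bipolar cells, 0.621 times (2.07% of genes lower and 3.71% higher), a gene and class near the yardstick above. No cone or amacrine pair was counted, where 6.45% and 4.92% of genes were higher and 1.62% and 4.02% lower. The rod Slc16a1 ratio was 0.814 when only cells with Y-linked and without Xist UMIs were used.

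Against bleached vehicle, rolipram gave 8 pairs higher and 1 lower, and BC11-38 gave 12 higher and 3 lower. Both comparisons share the bleached vehicle library, the one that stands apart in Xist, so a shift in that library enters both. Of these calls 2 with rolipram and 2 with BC11-38 are Hk2 in Müller and bipolar cells, where it was near the yardstick.

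Müller glia held the largest ratios. Slc16a1 was 2.32 times the bleached vehicle level with rolipram (interval 2.15 to 2.5) and 3.57 times with BC11-38 (3.3 to 3.85), and over all alternative settings these stayed within 1.99 to 2.65 and 3.12 to 4. Ldhb was 1.55 times (1.46 to 1.64) and 2.36 times (2.22 to 2.5). Aldoc was 1.87 times (1.81 to 1.93) and 1.59 times (1.52 to 1.65), the latter 1.36 as a mean over cells. Hk1 was 0.634 times with BC11-38 (0.545 to 0.735), and 0.677, short of the 1.5-fold mark, among cells with Y-linked and without Xist UMIs. In Müller glia 21.4% of genes were higher and 14.3% lower with rolipram, and 23.5% and 18.3% with BC11-38, so 4 of 10 members higher in each, Hk2 among them, stand beside a broad shift of the class. Median-of-ratios scaling moved the median log2 ratio of all Müller genes from 0.09 to -0.10 with rolipram and from 0.08 to -0.12 with BC11-38, and Ldhb with rolipram was then 1.35 times.

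The share of the Müller clusters differed too. Most Müller cells lay in the cluster led by Cp and Crym (cluster 12) in bleached vehicle, 961 of 1406, and in the cluster led by Spc25 and Apoe (cluster 14) in rolipram, 882 of 1210, and BC11-38, 556 of 601. Within cluster 14 Slc16a1 was 175, 115, 215 and 285 CPM, and Ldhb was 316, 266, 272 and 389 CPM. The bleached vehicle value rests on 70 cells. Aldoc in the same cluster was 866, 915, 735 and 643 CPM and Hk1 53.3, 48.1, 49.4 and 47.6 CPM, so the class ratios of Aldoc and Hk1 against bleached vehicle, and that of Ldhb with rolipram, were not seen within it. In the cluster numbered 15 Aldoc was 558, 210 and 789 CPM, Ldhb 176, 98.0 and 335 CPM and Slc16a1 44.8, 21.3 and 120 CPM in unbleached vehicle, bleached vehicle and rolipram. In cluster 13 Aldoc was 1078 CPM in bleached vehicle and 1949 CPM with rolipram, on 61 and 68 cells. The Aldoc ratio with rolipram thus differed between clusters. In cluster 12 Aldoc was 691, 405 and 644 CPM and Slc16a1 99.7, 81.1 and 103 CPM in the 3 libraries with at least 50 cells there, leaving out BC11-38. Summed Müller markers of the class were 22667, 14360, 30744 and 37871 CPM and Gfap 764, 869, 397 and 32.7 CPM, and the part of these shifts in the ratios was not tested.

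**Figure D5:**
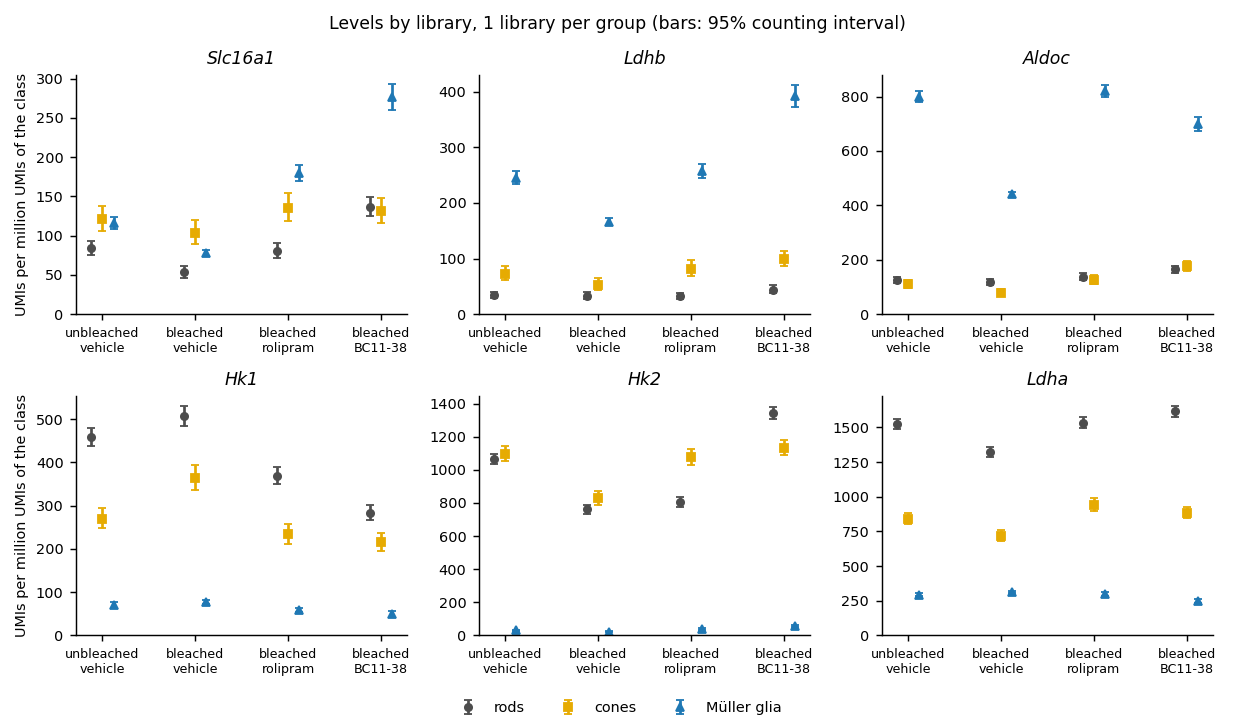
Levels in CPM of the class (linear axes from 0) of 6 genes in rods, cones and Müller glia of the 4 libraries, with exact 95% counting intervals and 1 library per group. Müller Slc16a1 is 77.5 in bleached vehicle and 276 in BC11-38, rod Hk2 is 762 and 1343, and rod Hk1 is 507 and 283 in the same libraries.

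In rods the hexokinases lay on opposite sides of their bleached vehicle levels with BC11-38. Hk2 was 1.76 times the bleached vehicle level with BC11-38 (1.68 to 1.85) and Hk1 0.559 times (0.518 to 0.603), where 3.57% of rod genes were higher and 14.1% lower. The Hk2 share of the pair was 69.9%, 60.0%, 68.6% and 82.6% in rods. Rod Slc16a1 was 2.54 times with BC11-38 (2.16 to 3) and 1.51 times with rolipram (1.26 to 1.8), where 2.26% of genes were higher and 8.4% lower. Without the highest doublet scores the rolipram value was 1.47, and among cells with Y-linked and without Xist UMIs 1.27.

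Rod clusters also changed between libraries. In the rod cluster present in all 4 with the most cells (cluster 3, led by Rp1 and Nr2e3), Hk2 was 1099, 749, 846 and 1228 CPM and Hk1 342, 378, 311 and 300 CPM. The Hk1 gap between bleached vehicle and BC11-38 was smaller in this cluster than over all rods. In cluster 19, also present in all 4 libraries, the gap was not smaller. Hk1 was 275, 513, 324 and 246 CPM there, with 92 cells of bleached vehicle. In cluster 3 Slc16a1 was 109, 115, 88.6 and 140 CPM. The lower rod Slc16a1 of bleached vehicle was thus not seen within it, on 167 cells of that library. The Slc16a1 gap between bleached vehicle and BC11-38 was smaller in cluster 3 than over all rods. In clusters 0 and 4, which held most rods of the bleached vehicle library, Slc16a1 was 54.5 and 46.7 CPM against 67.6 and 75.3 unbleached. With rolipram Slc16a1 was 89.2 and 47.5 CPM in clusters 0 and 4. In cluster 19 it was 78.7 CPM with rolipram against 90.2 in bleached vehicle. Among clusters 0, 3, 4 and 19, Slc16a1 with rolipram was thus 1.5-fold over bleached vehicle only in cluster 0, and in clusters 3 and 19 it was lower. A shallow rod cluster with Hk2 among its leading genes (cluster 1) gave 585 of 2297 rods of BC11-38 and held 1972 CPM of Hk2 there. Without the 3 shallowest rod clusters the rod Hk2 ratio of rolipram to BC11-38 moved from 0.599 to 0.667, just short of the 1.5-fold mark.

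Cones showed Hk1 lower and other members higher with both drugs. Hk1 was 0.642 times the bleached vehicle level with rolipram (0.565 to 0.728) and 0.59 times with BC11-38 (0.521 to 0.666), where 8.04% and 9.81% of cone genes were lower. Aldoc was 1.63 times (1.31 to 2.03) and 2.26 times (1.86 to 2.78), and Ldhb 1.55 times (1.19 to 2.04) and 1.88 times (1.47 to 2.43), where 5.27% and 4.23% of genes were higher. Gapdh was 1.59 times with BC11-38 (1.52 to 1.67). Ldhb with rolipram was 1.3 as a mean over cells, and Aldoc with rolipram 1.33 among cells with Y-linked and without Xist UMIs.

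Bipolar cells added Ldhb, 1.6 times (1.38 to 1.85; 1.47 as a mean over cells), and Slc16a1, 1.5 times (1.12 to 2.03), with BC11-38, in a class with 3.65% of genes higher and 5.43% lower. With rolipram Hk2 alone was counted there, beside 3.85% higher and 3.27% lower. The bipolar Slc16a1 ratio with BC11-38 was 1.11 once the rod profile was subtracted by the median marker share, and that of Hk2 0.921. In amacrine cells none of the 10 genes reached 1.5-fold in any of the 4 comparisons, all without a test. The shares of amacrine genes that did were 4.11% higher and 3.54% lower with rolipram and 3.87% and 5.03% with BC11-38.

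Set against each other at the same dose and time, rolipram gave 0 pairs higher and 5 lower than BC11-38. These were rod Hk2 (0.599 times, interval 0.572 to 0.627) and Slc16a1 (0.593, 0.513 to 0.685), with 1.38% of rod genes lower and 4.34% higher, and Müller Slc16a1 (0.65, 0.6 to 0.705), Ldhb (0.656, 0.614 to 0.702) and Hk2 (0.646), with 2.97% of Müller genes lower and 4.56% higher. No pair was counted in cones (2.75% of genes higher, 1.25% lower), bipolar cells (2.76% and 0.987%) or amacrine cells (2.04% and 0.974%). The Müller Hk2 levels were near the yardstick. Ldha, Pkm, Aldoa and Pfkp reached 1.5-fold in none of the 4 comparisons in any class.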

How the data were processed

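Per the labels' protocols, dissociated retinae were sequenced with 10x v3 reagents. Cell Ranger 6.0.1, Seurat 3.2.2 and mm10 are named per the submitters' processing notes. The deposited values are natural log (ln) values of the UMIs per 10000 in each cell after adding 1. The file headers name the Seurat data slot and the values gave the scale. Whole UMIs were recovered (tolerance 0.001, 100% of values, 140410160 in total), where the design had assumed counts. Use of strand, intronic reads and shared reads is not given in the sources used here.

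Cells were clustered with scanpy 1.11.5 (2000 variable genes, 30 components, 15 neighbours, Leiden resolution 1, 37 clusters) without the 94 pathway genes, and clusters were named by markers seen in at least 15% of cells and 2-fold over the median cluster. The fit took rods, cones, Müller glia, bipolar and amacrine cells, each with at least 50 cells in every library. limma 3.58.1 (R 4.3.3) with a variance trend was run on genes at 1 CPM in 4 sums. On simulated data the fit was tested with known changes. No sample numbers pair the groups. P-values measure how class differences varied between 4 libraries, after shifts common to all classes of a library were taken out. Carried-over rod RNA was scaled by the median share of 10 rod markers. 1 rod marker, what rests on it (the planned correction for free RNA) and 1 similar gene are not reported here.

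The members, lists, tests and markers were chosen with earlier results of these data known. Named genes outside the 10 were the largest called differences of each list, at most 3 in each direction, and the 5 most similar genes of Hk2, Aldoc and Ldhb. The alternatives without shallow rod clusters and with the rod profile subtracted by the median marker share, and the within-cluster values, were added after seeing the data. Gapdhs, Ldhc and protein sequences were not analysed here.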

Additional observations from a re-analysis of the deposited data

How the results depend on the processing

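Class calls of the 10 genes rarely depended on the processing: over all single-gene alternatives 720 values kept direction and side of the threshold, 10 gained and 8 lost the call, and 12 changed sign, all of uncalled differences. The sign changes were photoreceptors minus Müller glia for Gapdh (-0.214 with median-of-ratios scaling, -0.00676 as a mean over cells), Müller glia minus inner neurons for Hk2 (0.0565 with that scaling, 0.622 with the rod profile subtracted by the median marker share), cones minus rods for Aldoc (0.137 with that scaling) and Hk2 (-0.0259 without the rolipram library, 0.196 without BC11-38, the range over left-out libraries), and bipolar minus amacrine cells as means over cells for Aldoa (0.00942), Aldoc (0.126), Ldha (0.0778) and Slc16a1 (0.0382), the last also 0.0346 with that scaling and, over left-out libraries, -0.0644 without BC11-38 to 0.0217 without bleached vehicle. A pseudocount of 10 called 1555 genes higher and 1918 lower in photoreceptors against Müller glia, 866 and 1680 against inner neurons, 1392 and 1686 for Müller glia against inner neurons, 564 and 761 for cones against rods, with 0 members higher, and 578 and 938 for bipolar against amacrine cells. Cones against rods gave 3890 lower at a pseudocount of 0.1 and 1385 lower with median-of-ratios scaling, and 0 to 1 members higher when each library was left out in turn. Bipolar against amacrine cells gave 1426 lower with a filter at 10 CPM and 1 member higher (Hk2) with the rod profile so subtracted. Median-of-ratios scaling moved the median of all genes from 0.14 to -0.11 for photoreceptors minus Müller glia, from -0.27 to -0.01 for Müller glia minus inner neurons and from -0.33 to -0.10 for cones minus rods; Müller Pkm then lay 0.79 below inner neurons (difference -0.79), under 2-fold.

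Of 32 called pairs between libraries 19 stayed at 1.5-fold in every alternative that recomputed the ratio and 13 did not in at least 1. For bleached against unbleached vehicle 5 pairs were lower with median-of-ratios scaling, 1 higher as a mean over cells, and 0 lower at 2-fold. For rolipram against bleached vehicle 5 were higher among cells with Y-linked and without Xist UMIs, 2 lower with median-of-ratios scaling, and 1 higher and 0 lower at 2-fold. For BC11-38 5 were higher and 0 lower at 2-fold, and bipolar Hk2 changed sign with the rod profile subtracted (log2 ratio -0.119). For rolipram against BC11-38 0 were lower at 2-fold and 1 was higher with the rod profile subtracted. The cause of these shifts was not tested. Leaving the library block out changed no count by over 1.5 times. No paired analysis was possible because each group has 1 library. The planned correction for free RNA is not reported here. Adding unnamed rod clusters was not run, as no cluster with most rod markers was left unnamed. With 1 library per group, differences between mice, dissociations and treatments cannot be told apart, and depth limits Slc16a1 in bipolar and amacrine cells, which rests on few UMIs.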

Other observations

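The wider pathway lists also differed between the Müller glia of the 4 libraries, again with 1 library per group and intervals for counting error only. Of 12 hypoxia response genes with at least 100 UMIs, 5 were lower in bleached than in unbleached vehicle, and 6 with rolipram and 8 with BC11-38 were higher than in bleached vehicle. Over all Müller genes 7.8% were lower in the first comparison, and 21.4% and 23.5% were higher in the others, and the clusters that held most Müller cells differed between the libraries, as given above. Ddit4, a stress gene that restrains growth signalling, was 90.5, 28.5, 132 and 314 CPM, in the order used above, and Vegfa, the vascular growth factor, was 196, 91.6, 209 and 274 CPM. The bleached vehicle library had the lowest and the BC11-38 library the highest value of both genes. Of 7 glucose uptake genes 6 were higher with each drug, beside the same 21.4% and 23.5% of all Müller genes, among them Txnip (2.41 times, interval 2.25 to 2.59, with rolipram and 2.96 times, 2.74 to 3.2, with BC11-38) and Bsg (1.78 and 2.39 times). The glycogen gene Ppp1r3c, a targeting subunit of a phosphatase, was 3.47 times (2.81 to 4.3) and 4.1 times (3.24 to 5.18) the bleached vehicle level. Pgls, of the pentose phosphate pathway, was lower, 0.549 and 0.42 times.

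In rods Bpgm, a mutase that makes 2,3-bisphosphoglycerate, was 0.62 times the bleached vehicle level with rolipram (0.55 to 0.698) and 0.357 times with BC11-38 (0.308 to 0.413). Nxnl1 in rods was 1.89 times (1.77 to 2.03) and 1.82 times (1.69 to 1.95), and Pfkfb2 1.58 times (1.44 to 1.75) and 1.65 times (1.5 to 1.82). Both drug comparisons share the bleached vehicle library, and these ratios were not tested.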
